A study of Mus musculus with 2 samples.

Results

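The genes described here are 10 that encode tropomyosins, actins and the proteins that bind actin filaments in contractile cells: Tpm1, Tpm2, Tpm4, Acta2, Actb, Actg1, Myl9, Tagln, Cnn1 and Cald1. They were chosen by name, and all 10 were found among the 27998 genes of the deposited matrices. Transcripts were counted in single cells from the limb tendons of mouse pups at postnatal day 7 (P7), in 1 library of mutant pups (Tgfbr2 f/-;ScxCre) and 1 of control pups, each a pool of cells from 2 pups. In the mutant the TGFβ type II receptor was targeted in cells with Cre under Scleraxis (Scx) control, which carried a floxed allele over a null allele. The control library is titled wild-type and is called so here, although its description reads Het, so that its genotype is not certain. Every mouse also carried the tendon reporter ScxGFP and the Cre reporter Ai14 Rosa26-tdTomato (RosaT). Fore- and hindlimb tendons were digested with enzymes and the epitenon was not scraped off, so that surface and vessel cells could be present. ScxCre acts in tenocytes, the resident fibroblasts of tendon, but not evenly in the embryo, and some cells outside tendon also carry its reporter.

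Actin filaments carry force in a cell, and tropomyosins lie along them as coiled-coil dimers that set which myosins and binding proteins can reach the filament. Mural cells, the pericytes and smooth muscle cells around vessels, can hold large amounts of smooth muscle actin (Acta2), the myosin regulatory light chain Myl9, transgelin (Tagln), calponin (Cnn1) and caldesmon (Cald1). Fibroblasts switch on part of the same set when they become contractile, and TGFβ is a well-known inducer of it, through SMAD proteins and through serum response factor, which binds the CArG box.

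The promoters of Tpm1, Acta2 and Myl9 are shown because mutant and wild-type cells rich in Scx differed in opposite directions in these genes, with Tpm1 lower and Acta2 and Myl9 higher in the mutant. Each is the RefSeq window (GRCm38.p6) from 250 bases before the annotated start to 50 bases past it, written 5′ to 3′ on the strand of the gene. Capitals mark a CArG box (CC and GG around 6 bases that are each A or T), or CATTCC, the letters bound by TEAD factors, on either strand (GGAATG where it lies on the other strand). Tpm1 was read from the minus strand of chr9:67049164-67049463, Acta2 from the minus strand of chr19:34255324-34255623 and Myl9 from the plus strand of chr2:156775214-156775513.
Tpm1: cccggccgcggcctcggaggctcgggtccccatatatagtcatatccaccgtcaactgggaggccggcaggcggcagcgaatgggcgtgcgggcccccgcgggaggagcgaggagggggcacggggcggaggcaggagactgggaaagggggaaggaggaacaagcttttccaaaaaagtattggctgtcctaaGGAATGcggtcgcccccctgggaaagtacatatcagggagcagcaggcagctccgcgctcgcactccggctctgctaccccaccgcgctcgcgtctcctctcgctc
Acta2: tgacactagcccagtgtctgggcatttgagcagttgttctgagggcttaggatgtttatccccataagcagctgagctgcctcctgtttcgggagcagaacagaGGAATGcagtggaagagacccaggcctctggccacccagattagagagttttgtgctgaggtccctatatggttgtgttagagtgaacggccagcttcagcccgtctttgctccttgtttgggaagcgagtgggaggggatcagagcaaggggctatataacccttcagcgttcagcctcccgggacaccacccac
Myl9: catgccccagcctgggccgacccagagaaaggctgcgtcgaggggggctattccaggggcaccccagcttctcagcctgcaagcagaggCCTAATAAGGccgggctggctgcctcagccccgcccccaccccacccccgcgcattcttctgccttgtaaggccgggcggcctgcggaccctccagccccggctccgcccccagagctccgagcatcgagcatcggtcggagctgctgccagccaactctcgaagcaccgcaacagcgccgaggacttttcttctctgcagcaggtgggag
The window of Myl9 held an exact match to the CArG box, as did that of Actg1, and 1.63% of all 32851 windows did. Near matches were not counted, so that a window without capitals can still hold a CArG-like sequence. That of Acta2 holds ccctatatgg and ccttgtttgg and that of Myl9 also ccttgtaagg, each with 1 G or C among the 6 middle bases. That of Tpm1 holds ccatatatag and ccaaaaaagt, each with 1 of the last 2 bases other than G. CATTCC lay in the windows of Tpm1 and Acta2 and in 1 of the 2 windows of Cald1, and in 14.7% of all windows. The E-box CANNTG, which Scx and other basic helix-loop-helix factors bind, lay in all 9 windows of the 8 genes that had any and in 72.3% of all windows. A match describes the letters of these windows only, and Tpm1, with 16 coding transcripts in the annotation, has other starts that were not searched.

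Cells were sorted into classes by unique molecular identifiers (UMIs, 1 for each captured transcript). Scx-high cells held 30 or more Scx UMIs per 10,000 and numbered 1169 (wild-type) and 233 (mutant). By the study's own account, its Scx level takes in transcripts of the ScxGFP reporter as well, so that the classes and bins rest on both together and not on the gene alone. Scx-low fibroblasts, 725 and 1868 cells, fell below that level and held 5 or more UMIs over Ly6a, Cd34, Dpt, Lum and Col3a1. Mural cells, 145 and 89, held 3 or more UMIs over Rgs5, Notch3 and Myh11 and were kept apart from the other classes, while 9 and 2 cells that met both the Scx and the mural rule were left out. These classes were taken from 2364 wild-type and 2592 mutant cells, and a level is the summed UMIs of a gene per 1,000,000 UMIs of its class (CPM). The 7 tenocyte genes summed to 41927 and 38921 CPM in Scx-high cells, and 9 mural genes to 4968 and 6012 CPM in mural cells. These sums take in Scx, Rgs5, Notch3 and Myh11, on which the rules rest, so that they do not check the classes. In the wild-type library each tenocyte gene other than Scx was also higher in Scx-high cells than in Scx-low fibroblasts, with Fmod, for example, at 5332 against 314 CPM. Mutant Scx-high cells, however, also held fibroblast genes, which summed to 5576 CPM over 7 genes against 712 in wild-type ones, most of it Col3a1, and 13235 and 14035 in Scx-low fibroblasts. Median depth was 4282 and 4195 UMIs a cell in Scx-high cells, 3621 and 2888 in Scx-low fibroblasts and 4518 and 3009 in mural cells, and the libraries shared 2 cell barcodes. Tgfbr2 was at 30.9 (wild-type) and 45.7 CPM (mutant) in Scx-high cells, which checks nothing, since 3′ counts can come from an allele that lacks a coding exon. Whether mutant Scx-high cells had lost the receptor was therefore not known. The study proposes that mutant cells with ScxGFP signal were newly recruited, some of them with weak or no RosaT. Mutant Scx-high cells thus need not be the counterpart of wild-type ones. With 1 library a group no difference between the libraries could be tested. Intervals are 95% and cover counting error only, not the spread between pups.

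Tpm1 (chr9:67022590-67049406, minus strand in GRCm38), the gene of α-tropomyosin, was high in Scx-high cells of the wild-type library and lower in those of the mutant. Its level was 1291 (1259 to 1323) CPM in wild-type and 877 (822 to 935) CPM in mutant Scx-high cells, a mutant over wild-type ratio of 0.68 (0.634 to 0.728), or 1.47-fold lower. It was 199 and 248 CPM in Scx-low fibroblasts, and 3387 and 2629 CPM in mural cells. Wild-type Scx-high cells thus held 6.48-fold (5.94 to 7.08) the level of wild-type Scx-low fibroblasts, and mutant ones 3.54-fold (3.26 to 3.84). As Scx-high cells were many in the wild-type library, they held 65.9% of its Tpm1 UMIs, against 26.9% in the mutant library, where they were 8.99% of cells.

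The share of Scx-high cells with a Tpm1 UMI was 89.1% (wild-type) and 76.0% (mutant), and 76.8% (74.1 to 79.3) and 62.2% (55.3 to 68.8) once every cell was thinned to 1641 UMIs. Among immune cells thinned in the same way, which had a median of 2376 and 1670 UMIs before thinning, the share was 16.5% and 13.2%. Both values in Scx-high cells lay far above that background.

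The Scx-high cells of the libraries were not alike in Scx, so that Tpm1 was also compared within bins of Scx, over cells outside the mural, haemoglobin-rich, immune and endothelial classes. Bins below 30 therefore hold the Scx-low fibroblasts together with the 38 (wild-type) and 122 (mutant) cells that met no class rule. How those cells were spread over the bins was not counted. Between 30 and 100 Scx UMIs per 10,000 lay 12.2% of the wild-type and 38.2% of the mutant Scx-high cells, and at 300 and over 28.6% and 28.3%. At 300 and over Tpm1 was at 1741 CPM in wild-type and 993 CPM in mutant cells, a ratio of 0.571 (0.511 to 0.636). Between 100 and 300 it was at 1185 and 927 CPM, a ratio of 0.783 (0.695 to 0.878). Between 30 and 100, however, the order was the other way round, at 524 and 705 CPM, a ratio of 1.34 (1.12 to 1.61). Tpm1 was thus higher the more Scx a cell held in both libraries, from 161 to 1741 CPM (wild-type) and from 214 to 993 CPM (mutant), with a shallower slope in the mutant.

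Tpm2 (chr4:43514711-43523765, minus strand), the gene of β-tropomyosin, was higher in mutant Scx-high cells, where Tpm1 was lower. It was at 401 (383 to 419) CPM in wild-type and 674 (626 to 725) CPM in mutant Scx-high cells, a ratio of 1.68 (1.54 to 1.83). In Scx-low fibroblasts it was at 188 and 123 CPM, a ratio of 0.653 (0.582 to 0.732). In mural cells it was at 6712 and 4178 CPM, a ratio of 0.623 (0.584 to 0.663). The difference in Scx-high cells was therefore not shared by the other classes, in which the mutant was lower. Over all cells of a library Tpm2 was also lower in the mutant, at 789 and 358 CPM, as was Tpm1, at 1007 and 423 CPM, where the libraries differ in the shares of the classes. Scx-high cells exceeded Scx-low fibroblasts 2.13-fold (1.93 to 2.35) in wild-type and 5.48-fold (4.94 to 6.08) in mutant cells. Within bins of Scx the ratio was 1.11 (0.874 to 1.42) between 30 and 100 and 2.1 (1.84 to 2.38) at 300 and over. About as many thinned Scx-high cells held a Tpm2 UMI in both libraries, 43.9% and 46.9% with overlapping intervals, while cells with 5 or more UMIs were 7.61% (wild-type) and 23.2% (mutant).

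Tpm4 (chr8:72134975-72153142, plus strand), a tropomyosin of non-muscle cells, was higher in mutant than in wild-type cells in both the Scx-high and the mural class. It was at 201 and 659.9 CPM in Scx-high cells, a ratio of 3.28 (2.97 to 3.62), and 25.9% and 55.0% of thinned cells held a UMI of it. Thinned immune cells held one in 28.6% (wild-type) and 34.1% (mutant) of cells, so that the wild-type Scx-high share did not exceed theirs. In mural cells it was at 683 and 1333 CPM, a ratio of 1.95 (1.7 to 2.24). In Scx-low fibroblasts it was lower in the mutant, at 478 and 389 CPM, a ratio of 0.814 (0.76 to 0.871). As a result the order of the classes turned: wild-type Scx-high cells held 0.421 (0.387 to 0.458) of the level of Scx-low fibroblasts, and mutant ones 1.7 (1.56 to 1.85).

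The balance of the tropomyosins in Scx-high cells differed between the libraries. For each Tpm2 UMI, wild-type Scx-high cells held 3.22 (3.06 to 3.39) Tpm1 UMIs and mutant ones 1.3 (1.18 to 1.44). For each Tpm4 UMI they held 6.42 (6.0 to 6.87) and 1.33 (1.2 to 1.47). Such ratios do not depend on the total to which UMIs are scaled, and since 1 UMI stands for 1 transcript end, they were not divided by length. Scx-low fibroblasts differed the other way, with 1.06 (0.936 to 1.19) and 2.02 (1.84 to 2.21) Tpm1 UMIs per Tpm2 UMI in wild-type and mutant cells, and mural cells held 0.505 (0.48 to 0.53) and 0.629 (0.574 to 0.689).

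**Figure D1:**
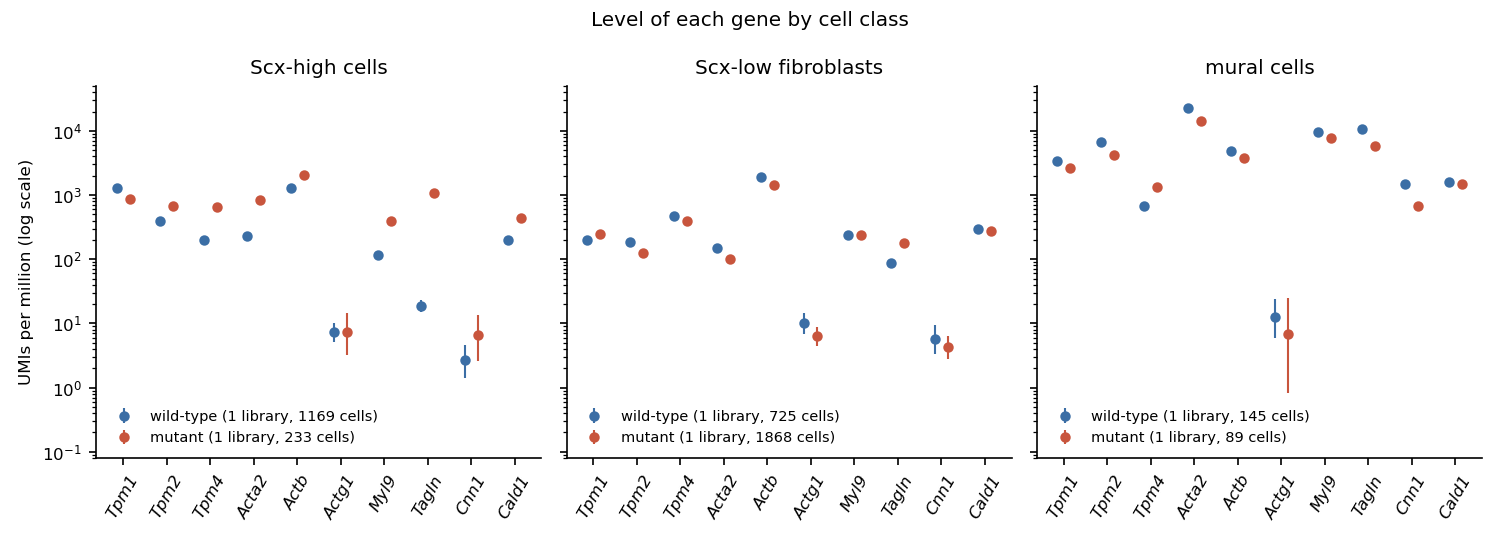
Summed UMIs per 1,000,000 (CPM, log scale) of the 10 genes in Scx-high cells, Scx-low fibroblasts and mural cells of the wild-type and the mutant library, with 95% Poisson intervals for counting error, many of them smaller than the points. In Scx-high cells Tagln lies at 18.9 (wild-type) and 1077 (mutant), while in mural cells Acta2 lies at 23025 and 14272.

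Tagln (chr9:45929619-45936058, minus strand), the gene of transgelin, an actin-binding protein of smooth muscle, had the largest ratio between Scx-high cells among the 10 genes. It was at 18.9 CPM in wild-type and 1077 CPM in mutant Scx-high cells, from 92 and 1154 UMIs, a ratio of 56.9 (45.9 to 71.1). A Tagln UMI was found in 3.59% and 51.9% of Scx-high cells, and in 2.06% (1.3 to 3.11) and 37.3% (30.7 to 44.3) of thinned ones. Thinned immune cells held one in 0.752% and 2.2% of cells, so that the wild-type share lay near background and the mutant share far above it. Mutant cells were uneven: the 24 with the most Tagln UMIs held 63.2% of them, with up to 109 in 1 cell, and 24.5% of the cells held 5 or more.

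Acta2 (chr19:34241090-34255590, minus strand), smooth muscle α-actin, was at 229.8 CPM in wild-type and 838 CPM in mutant Scx-high cells, a ratio of 3.65 (3.34 to 3.99). The share of cells with an Acta2 UMI differed less than the level, 45.5% and 48.1% as counted, and 24.7% (22.2 to 27.4) and 34.9% (28.5 to 41.8) when thinned. In thinned immune cells that share was 4.51% and 2.2%. Cells with 5 or more Acta2 UMIs were 3.08% (wild-type) and 23.2% (mutant) of Scx-high cells, and the 24 mutant cells with the most held 60.7% of the UMIs. The libraries thus differed more in the number of Acta2 UMIs per cell than in the share of cells that held one.

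Myl9 (chr2:156775420-156781658, plus strand), the regulatory light chain of smooth muscle and non-muscle myosin, was at 118 and 399 CPM in wild-type and mutant Scx-high cells, a ratio of 3.37 (2.97 to 3.83). Cald1 (chr6:34598500-34775473, plus strand), caldesmon, which binds actin and myosin in smooth muscle and other cells, was at 201 and 442 CPM, a ratio of 2.21 (1.97 to 2.46). More of the thinned mutant cells held each transcript, with 16.9% (wild-type) and 37.8% (mutant) for Myl9 and 26.7% and 47.4% for Cald1. Actb (chr5:142903115-142906754, minus strand), β-actin, which nearly every cell uses, was at 1276 and 2053 CPM, a ratio of 1.61 (1.53 to 1.69).

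Cnn1 (chr9:22099216-22109630, plus strand), calponin, a smooth muscle protein that binds actin beside tropomyosin, was near 0 in Scx-high cells, with 13 UMIs (2.68 CPM, wild-type) and 7 UMIs (6.53 CPM, mutant). The interval of its ratio ran from 0.825 to 6.58, so that a difference was not detectable at this depth. The number of Tagln UMIs per Cnn1 UMI was 165 (79.8 to 411) in mutant Scx-high cells and 41.5 (27.9 to 64.4) in mutant Scx-low fibroblasts, against 8.46 (7.3 to 9.85) in mural cells of the same library. In the wild-type library it was 7.08 (3.94 to 13.8), 15.1 (9.13 to 26.9) and 7.02 (6.58 to 7.49) in the same classes. Mutant Scx-high cells and the Scx-low fibroblasts of both libraries thus held more Tagln for their Cnn1 than mural cells did. Actg1 (chr11:120345690-120348542, minus strand), γ-actin, was at 6.3 to 12.8 CPM in the 3 classes of both libraries. That level is uncertain, since reads that match near-identical actin sequences elsewhere in the genome may not have been counted, and no comparison of Actg1 is made.

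In the comparison of Scx-high cells 8 of the 10 genes had a mean level of at least 50 CPM, the lowest from which a gene was read as higher or lower, at 2-fold or more. Of these, 5 were higher in the mutant (Tagln, Acta2, Myl9, Tpm4 and Cald1) and 0 lower. Among all 2480 genes at that level 10.3% were higher and 4.07% lower. The median log2 ratio of the 8 genes was 1.43, beside 0.30 for all genes, so that the scale itself was shifted toward the mutant. Centred on the median of all genes, Cald1 was at 1.79, below 2-fold, and Tpm1 at 0.55, while Tagln, Acta2, Myl9 and Tpm4 stayed at least 2-fold higher.

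**Figure D2:**
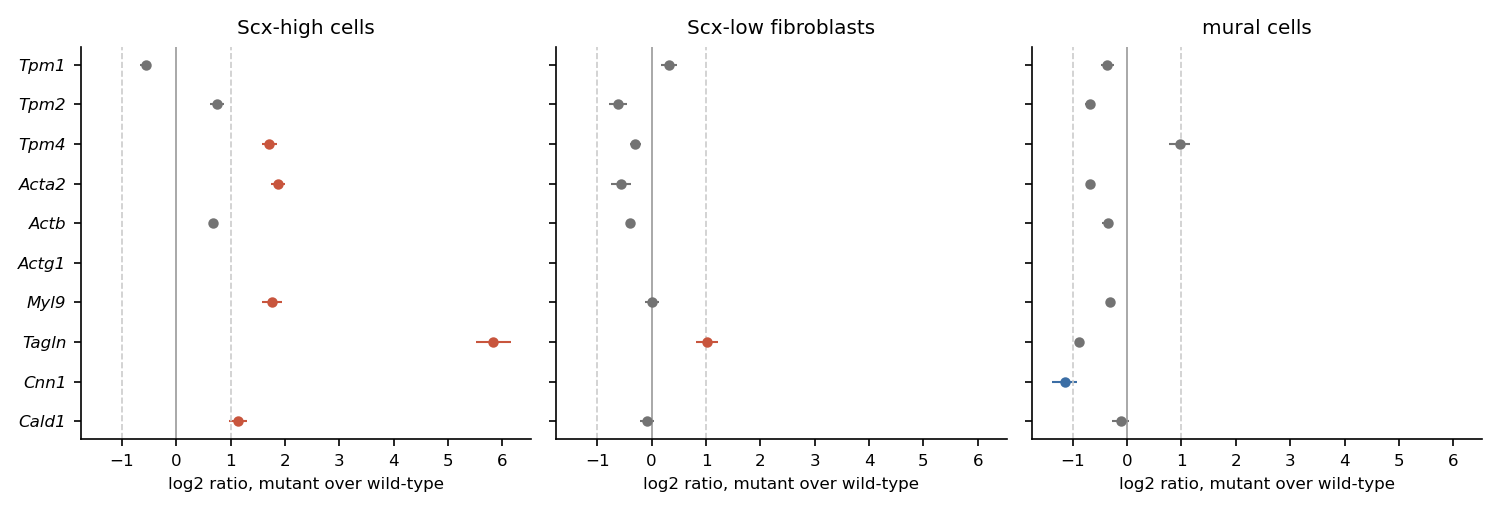
Log2 ratio of the mutant over the wild-type level in each class, with 95% intervals for counting error, for genes with a mean level of at least 50 CPM; dashed lines mark 2-fold. At least 2-fold apart are 5 genes in Scx-high cells, Tagln in Scx-low fibroblasts (2.01) and Cnn1 in mural cells (0.451).

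As mural cells are rich in these transcripts, their own genes were read in the Scx-high cells. Rgs5, Notch3 and Myh11 were at 1.87, 3.73 and 0.933 CPM in mutant Scx-high cells and 2.88, 1.65 and 1.44 CPM in wild-type ones, values that the class rule itself keeps low. All 9 mural genes came to 40.8 CPM (wild-type, 8 with a UMI, Higd1b at 0) and 99.9 CPM (mutant, 9 with a UMI), of which Des made up 60.7 in the mutant, from 65 UMIs in 13 cells. Without the cells that held any UMI of Rgs5, Notch3 or Myh11, an alternative chosen after the values were seen, the ratio of Tagln was 70.6 and that of Acta2 3.7. With the 9 and 2 cells kept that also met the mural rule, Tagln was 13.0-fold, Acta2 2.41-fold and Myl9 2.53-fold higher in the mutant, so that those 9 wild-type cells moved the size of the ratios but not their direction.

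Skeletal muscle genes also differed between the Scx-high cells of the libraries. Their 11 markers summed to 13.2 CPM (wild-type, 10 with a UMI) and 199.7 CPM (mutant, 8 with a UMI), of which Actc1, cardiac α-actin, made up 143 in the mutant, with 153 UMIs in 9 cells. Without all cells that held any such UMI, also chosen after the values were seen, 1117 and 212 Scx-high cells remained. The ratios were then 63.2 for Tagln, 3.03 for Acta2 and 3.56 for Myl9. The part that the higher fibroblast genes of the mutant class had in these ratios was not tested, and fewer Scx-high cells in the mutant library cannot be told apart from cells that no longer reached the Scx level.

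Along Scx, Tagln separated the libraries the more, the more Scx a cell held. In wild-type cells it was at 102 CPM at over 0 to 10 Scx UMIs per 10,000 and at 10.7 CPM at 300 and over. In mutant cells it was at 87.7 CPM with no Scx UMI, 822 between 10 and 30, 517 between 30 and 100, 1461 between 100 and 300 and 1251 at 300 and over. The ratio was 17.7 (10.3 to 33.0) between 30 and 100, 67.8 (52.0 to 89.7) between 100 and 300 and 117 (71.5 to 207) at 300 and over. The intervals between 100 and 300 and at 300 and over overlapped. Wild-type levels in these bins came from only 14, 62 and 16 UMIs. Mutant cells just below the Scx level thus held Tagln within the range of those above it, and the wild-type cells with the most Scx held the least.

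Tpm4, Cald1 and Actb showed a like order within the Scx-high cells. The ratio of Tpm4 was 1.64 (1.34 to 2.02) between 30 and 100 and 4.0 (3.39 to 4.71) at 300 and over, and that of Cald1 1.38 (1.07 to 1.79) and 2.97 (2.46 to 3.58). For Actb it was 1.23 (1.1 to 1.37) and 1.93 (1.77 to 2.09). Acta2 did not follow Scx in this way. Its ratio was largest just below the Scx level, at 6.77 (4.76 to 9.88) between 10 and 30. That bin can also hold cells that met no class rule, in which Acta2 was at 503 (wild-type) and 1608 CPM (mutant). The part of those cells in this ratio was not tested. Over the 3 bins above it the ratio of Acta2 was 2.57 (2.02 to 3.28), 4.27 (3.74 to 4.87) and 4.18 (3.59 to 4.87). Myl9 did not follow Scx in this way either, at 4.08 (2.89 to 5.85), 3.67 (3.02 to 4.44) and 3.18 (2.52 to 4.01) with overlapping intervals. In wild-type cells Actb and Tpm4 were lower at 300 and over than with no Scx UMI, at 1169 against 1921 CPM and 196 against 410.5 CPM. In mutant cells they were higher there, at 2255 against 1357 CPM and 783 against 356 CPM.

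**Figure D3:**
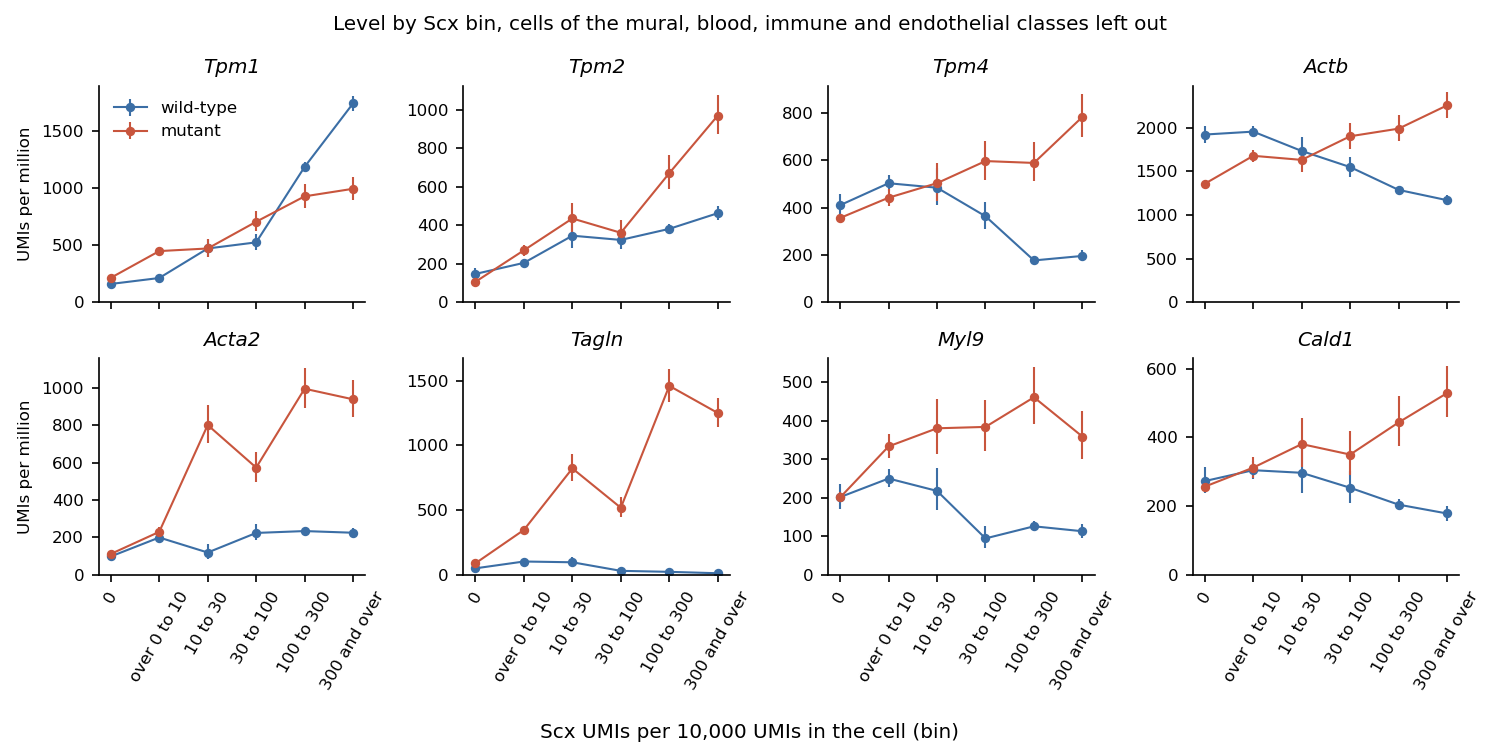
Summed UMIs per 1,000,000 (CPM) of 8 genes in cells grouped by Scx UMIs per 10,000, with 95% Poisson intervals for counting error; cells of the mural, haemoglobin-rich, immune and endothelial classes are left out and the last 3 bins hold the Scx-high cells but for 1 haemoglobin-rich wild-type cell. Tpm1 reaches 1741 (wild-type) and 993 (mutant), while Tagln at the highest Scx lies at 10.7 and 1251.

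Most of the genes were higher in Scx-high cells that held Tagln, in both libraries. After thinning, 78 mutant Scx-high cells held a Tagln UMI and 131 did not. Tpm1 was at 1328 (1136 to 1543) CPM in cells with Tagln and 665 (561 to 784) CPM in cells without it. Tpm2 was at 797 (649.8 to 967) and 456 (370.1 to 556) CPM, and Myl9 at 531 (413 to 673) and 251 (189 to 328) CPM. Cald1 and Actb were likewise higher in cells with Tagln, at 609 against 330.3 CPM and 2477 against 1623 CPM. Tpm4 was at 703 (565 to 864) and 484 (395 to 586) CPM, with overlapping intervals. Acta2 differed less, at 859 (706 to 1036) and 605 (505 to 718) CPM.

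Mutant cells with Tagln held Tpm1 at the level of the wild-type Scx-high class, 1264 CPM after thinning, which lies inside their interval, while mutant cells without Tagln lay below it. Scx was also higher in cells with Tagln, at 28938 against 21919 CPM, whereas tenomodulin (Tnmd), a marker of mature tenocytes, was at 5461 (5064 to 5881) and 5429 (5122 to 5749) CPM. In the wild-type library 22 of 1067 thinned Scx-high cells held Tagln. Tpm2 was at 776 (515 to 1121) CPM in them and 383 (354 to 414) CPM in the others, Tpm4 at 526 and 194 CPM, Actb at 2409.8 and 1309 CPM, Acta2 at 554 and 211 CPM and Myl9 at 277 and 114 CPM, all without overlap of the intervals. Cald1 was at 332 (172 to 581) and 209 (188 to 232) CPM, and Tpm1, the only one of these genes lower in the wild-type cells with Tagln, at 914 (629 to 1284) and 1272 (1219 to 1326) CPM, both with overlapping intervals. Actg1 and Cnn1 had 0 UMIs in those cells and 15 and 7 in the others, too few to compare. Tpm1 and Acta2 were also higher in Scx-low fibroblasts with Tagln, in both libraries. Those were 28 wild-type and 122 mutant thinned cells, of which 8 and 44 held an Acta2 UMI. Tpm1 was at 805 with and 163 CPM without Tagln in wild-type and at 744 and 179 CPM in mutant cells. Acta2 was at 1654 and 92.9 CPM in wild-type and at 659 and 27.9 CPM in mutant cells, so that its wild-type value rests on few cells. The same split by Acta2 gave Tpm2 at 993 (823 to 1189) and 363 (288 to 451) CPM in mutant cells, and at 402 (344 to 466) and 388 (355 to 423) CPM in wild-type ones. These splits were made on the cells that they describe, so that the values are a description of 1 library each.

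**Figure D4:**
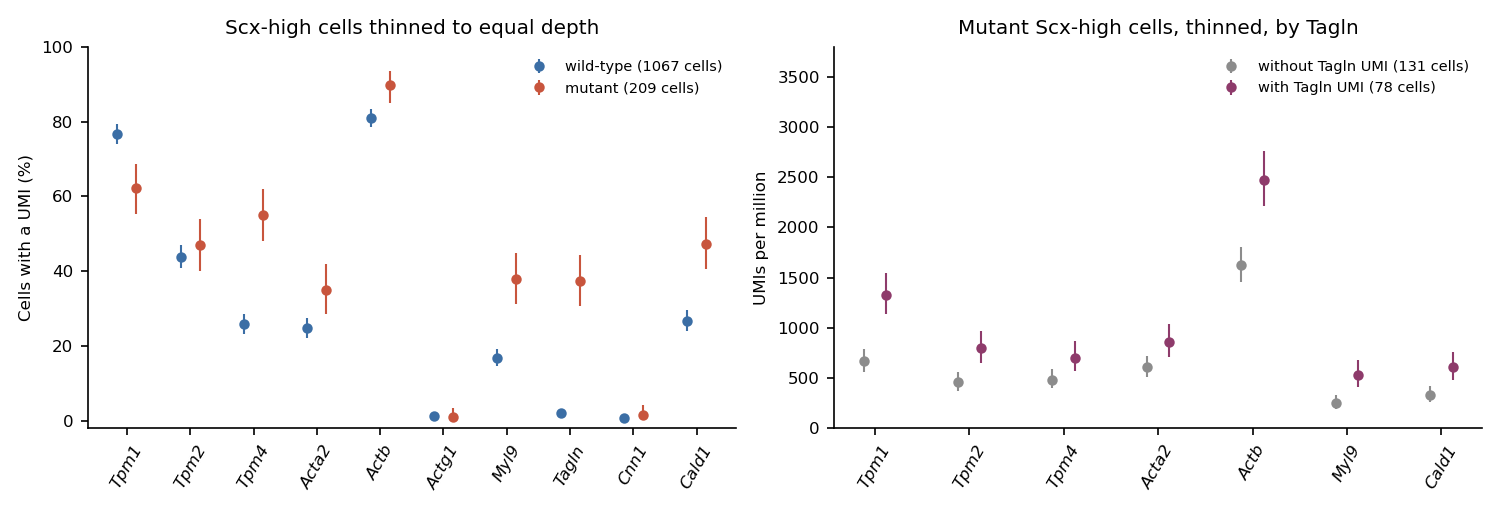
Left, share of Scx-high cells with at least 1 UMI of each gene after every cell was thinned to 1641 UMIs, with exact binomial 95% intervals. Right, CPM in thinned mutant Scx-high cells with (78) and without (131) a Tagln UMI, with 95% Poisson intervals: Tpm1 is at 1328 and 665.

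Scx-low fibroblasts differed less between the libraries. Of the 8 genes with enough counts 1 was at least 2-fold higher in the mutant (Tagln) and 0 lower, beside 3.02% and 3.89% of all 2852 genes. Tagln was at 87.7 and 177 CPM in wild-type and mutant cells, a ratio of 2.01 (1.75 to 2.33), just past 2-fold. Tpm1 was at a ratio of 1.24 (1.13 to 1.38), on the other side of 1 from that in Scx-high cells. Acta2 was at 152 and 103 CPM, a ratio of 0.676 (0.595 to 0.767), and Actb at 1913 and 1443 CPM, a ratio of 0.755 (0.729 to 0.781). The ratios of Myl9, 1.01 (0.915 to 1.1), and Cald1, 0.943 (0.866 to 1.03), had intervals that included 1.

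The level of Acta2 in this class rested on few cells and on how mural cells were set apart. The 73 wild-type Scx-low fibroblasts with the most Acta2 UMIs held 82.6% of them, with 79 in 1 cell. Without the cells that held any mural UMI, 662 and 1827 remaining, the ratio of Acta2 was 1.13, on the other side of 1, and that of Tagln 3.27. With mural cells kept among the fibroblasts, as the rule reads without the exclusion, 828 and 1910 cells entered, and the ratio was 0.111 for Acta2, 0.172 for Tagln and 0.406 for Tpm1. Tpm1 and Tagln kept their direction in 13 of 14 alternatives and Acta2 in 12, so that the direction turned for each under some treatment of mural cells.

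Between the classes of 1 library 8 genes had enough counts. In wild-type cells 2 were at least 2-fold higher in Scx-high cells than in Scx-low fibroblasts, Tpm1 and Tpm2, and 2 lower, Tpm4 and Tagln, beside 5.16% and 15.5% of all 2580 genes. Tagln was at 18.9 against 87.7 CPM, a ratio of 0.216 (0.168 to 0.276). In mutant cells 4 genes were higher in Scx-high cells and 0 lower, beside 4.69% and 6.25% of all 2752 genes. Acta2 was 8.17-fold (7.36 to 9.08) and Tagln 6.1-fold (5.6 to 6.64) higher, followed by Tpm2 and Tpm1 with the values given above. All 8 genes had a ratio above 1 in mutant cells, and 3 did in wild-type cells. The median log2 ratio of the 8 was -0.57 (wild-type) and 1.29 (mutant), beside -0.36 and -0.01 for all genes. Where mural cells were kept among the fibroblasts, Tpm2 in wild-type cells was at a ratio of 0.321 in place of 2.13.

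Mural cells held the highest levels of the genes other than Actg1 among the 3 classes, and Acta2, Tagln, Tpm2 and Cnn1 were lower in those of the mutant, with Cnn1 alone past 2-fold. Acta2 was at 23025 CPM in wild-type and 14272 CPM in mutant mural cells, a ratio of 0.62 (0.599 to 0.641). Tagln was at 10613 and 5772 CPM, a ratio of 0.544 (0.516 to 0.573). Cnn1 was at 1513 and 682 CPM, a ratio of 0.451 (0.386 to 0.525), and 56.4% and 33.3% of thinned cells held it. Cnn1 was the 1 gene of 9 with enough counts that was at least 2-fold lower in the mutant, with 0 higher, beside 2.5% lower and 5.06% higher among all 3080 genes. Myl9, Actb and Tpm1 were lower by less, with ratios of 0.806 (0.768 to 0.846), 0.782 (0.73 to 0.837) and 0.776 (0.715 to 0.842), while the ratio of Cald1, 0.922 (0.824 to 1.03), had an interval that included 1. Mural cells held 87.6% of all Acta2 UMIs and 91.8% of all Tagln UMIs of the wild-type library, and 67.5% and 42.3% in the mutant, where 29.0% of the Tagln UMIs lay in Scx-high cells against 1.13% in the wild-type.

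The mural class was made up differently in the libraries. Markers of other cells differed in it: 6 endothelial genes summed to 7.12 CPM (wild-type, 3 with a UMI) and 469.6 CPM (mutant, 6 with a UMI), 4 Schwann cell genes to 68.3 and 394 CPM (Sox10 at 0 in both), 5 red blood genes to 7742 and 264 CPM, 7 fibroblast genes to 4977 and 2831 CPM and 11 skeletal muscle genes to 182 and 72.0 CPM. Without cells rich in haemoglobin, immune or endothelial UMIs, 145 wild-type and 86 mutant mural cells remained, of 145 and 89. The ratio was then 2.0 for Tpm4, 0.678 for Acta2, 0.593 for Tagln and 0.493 for Cnn1. As that filter left out no wild-type mural cell, the part of the red blood genes in these ratios was not tested, nor was that of the Schwann cell and fibroblast genes. Of the wild-type mural cells 92 held a UMI of Myh11, smooth muscle myosin heavy chain, and 53 did not, against 44 and 45 in the mutant library, whose mural cells were also shallower (median 5001 and 3551 UMIs, wild-type, and 3152 and 2388, mutant). With Myh11, Acta2 was at 32321 (31819.8 to 32828) and 25912 (25101 to 26742) CPM in wild-type and mutant cells, and without it at 1446 and 2116 CPM. Cnn1 was at 2161 (2032 to 2295) and 1335 (1156 to 1534) CPM with Myh11. Without it 2 UMIs were counted in wild-type and 0 in mutant cells, where the interval for 0 reached 25.8 CPM. Acta2, Cnn1 and also Tagln (15014 and 10762 CPM) were thus lower in the mutant among the cells with Myh11 alone. So were Tpm2 (9247 and 7327 CPM) and Actb (5722 and 4616 CPM). Among the cells without Myh11, Acta2 was higher in the mutant, and Tagln was at 397 (317 to 492) and 561 (445 to 698) CPM. There the intervals of Tagln overlapped, as did those of Tpm2 and of Actb.

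Tpm1 and Myl9 were not. Among cells with Myh11, Tpm1 was at 4459.6 (4275 to 4650.3) and 4549 (4213 to 4905) CPM and Myl9 at 13030.5 (12713 to 13354) and 13426 (12844 to 14027) CPM, with overlapping intervals. Tpm4 was higher in the mutant in both sets, at 605 and 1201 CPM with Myh11 and 865 and 1472 CPM without it. Myh11 belongs to the rule for mural cells, and this split was made after the values were seen.

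**Figure D5:**
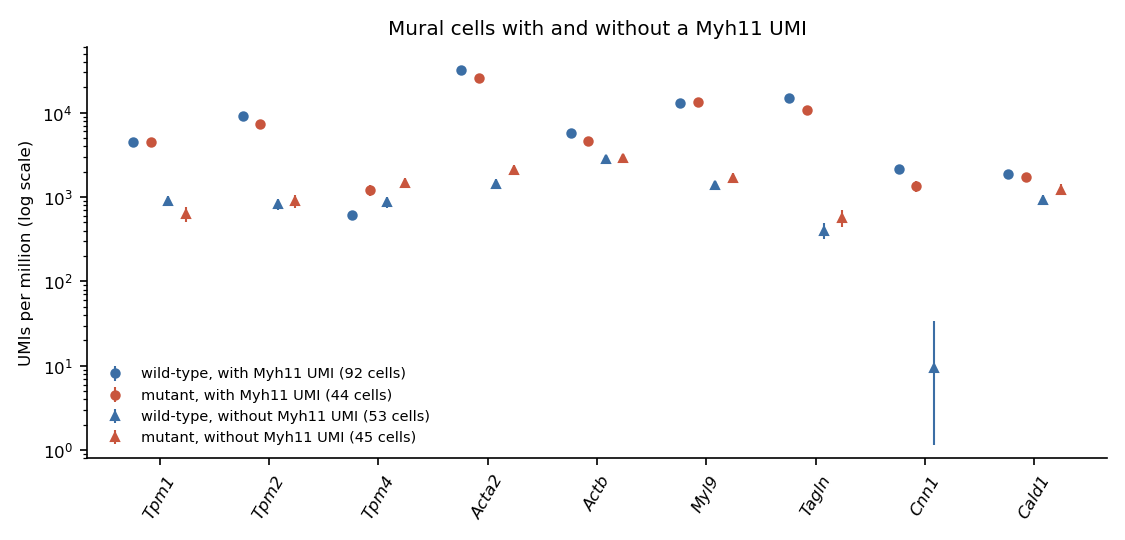
Summed UMIs per 1,000,000 (CPM, log scale) of 9 genes in mural cells with and without a Myh11 UMI in the wild-type and the mutant library, with 95% Poisson intervals for counting error. Acta2 lies at 32321 and 25912 with Myh11 and at 1446 and 2116 without it, and Cnn1 had 0 UMIs in mutant cells without Myh11.

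Outside the 3 classes most of the genes were low in haemoglobin-rich and immune cells, but not in the remaining cells. Tagln was at 0 to 14.8 CPM in haemoglobin-rich and immune cells, and Acta2 at 0 to 40.8 CPM. Actb was an exception, with its highest level in immune cells, at 7222 CPM (wild-type) and 6804 CPM (mutant). Another was Tpm4, at 266 and 251 CPM in immune cells, above its 201 CPM in wild-type Scx-high cells. Tpm4 was at 1023 and 743 CPM in the class set by endothelial UMIs, which held only 15 and 20 cells. Cald1 was at 588 and 283 CPM in that class, Myl9 at 171 and 248 CPM and Tagln at 37.9 and 159 CPM. In the mutant library that class held 4 Schwann cell genes at 23295 CPM, against 4900 CPM for 6 endothelial genes. In the wild-type library these sums were 0 and 6576 CPM, so that the class was not made up alike. The cells that met no rule, 38 and 122, carried skeletal muscle genes at 11596 and 10081 CPM over the 11 markers. They also carried the 4 Schwann cell genes, at 140 CPM (wild-type) and 12796.5 CPM (mutant). Acta2 was at 503 and 1608 CPM in them, Tpm1 at 1052 and 881 CPM, Tpm2 at 701 and 888 CPM and Tagln at 35.1 and 234 CPM.

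Other genes of the contractile machinery were read from lists in the same Scx-high cells. Of 14 crosslinkers and focal adhesion genes 10 had enough counts, of which 7 were at least 2-fold higher and 0 lower in the mutant, with a median log2 ratio of 1.44. Zyx, a focal adhesion protein, was at 21.6 and 133 CPM, a ratio of 6.13 (4.73 to 7.97), and Pdlim7, a PDZ and LIM domain protein, at 28.0 and 167 CPM. Lima1, which crosslinks actin filaments, had the lowest ratio of this list, 0.706 (0.565 to 0.873). Of 12 genes of actin turnover 4 were higher and 0 lower, with a median log2 ratio of 0.79. Among them Cotl1, which binds actin filaments, was at a ratio of 9.07 (6.74 to 12.3) and the capping protein gene Capg at 3.4 (2.78 to 4.16), while Tmsb10, which binds actin monomers, was at 0.647 (0.617 to 0.679). Both lists thus held more higher than lower genes, as did all genes, of which 10.3% were higher and 4.07% lower.

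Light chains of myosin differed in both directions. Myl12a, a regulatory chain, was at a ratio of 2.59 (2.45 to 2.74) in Scx-high cells and the essential chain Myl6 at 0.283 (0.221 to 0.356), and Myl12b, a close paralog of Myl12a, at 0.639 (0.508 to 0.795). Myl6 was also lower in mutant Scx-low fibroblasts, at 0.175 (0.154 to 0.198), and in mutant mural cells, at 0.168 (0.134 to 0.209), so that it was lower in the mutant in all 3 classes. These light chains are uncertain, since reads shared with paralogs or with copies elsewhere in the genome could have been split or dropped. Of 3 relatives of calponin and transgelin, Tagln2 was past 2-fold, at 2.52 (2.26 to 2.8).

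Smooth muscle genes other than the 10 were for the most part too low to compare in Scx-high cells. Of 10 in the list only Csrp2, a LIM domain protein, had enough counts, at 37.9 and 955 CPM, a ratio of 25.2 (21.5 to 29.6), and it was found in 141 of the 1169 wild-type and 167 of the 233 mutant cells. Of 4 other actins and tropomyosins Tpm3 was at 1.25 (1.06 to 1.47), and Actc1 rested on the 9 cells described above. In a list of 6 genes of serum response factor and transcription cofactors Wwtr1 alone had enough counts, at 1.35 (1.0 to 1.79). Serum response factor itself could thus not be compared.

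In Scx-low fibroblasts, where 3.02% of all genes were higher and 3.89% lower in the mutant, 0 of the 10 crosslinkers and focal adhesion genes with enough counts were either. Of 12 genes of actin turnover 2 were lower, the monomer-binding Tmsb4x at 0.459 (0.45 to 0.469) and Capg at 0.394 (0.361 to 0.43). Of 3 non-muscle myosin genes Myl6 was lower, of 3 relatives of calponin and transgelin Tagln2, at 0.475 (0.448 to 0.504), and the 1 smooth muscle gene with enough counts, Csrp2, was higher, at 2.23 (2.06 to 2.41). Tagln2 and Capg thus differed in opposite directions in Scx-low fibroblasts and Scx-high cells. In mural cells 9 of the 10 smooth muscle genes had enough counts, of which 1 was lower and 0 higher, with a median log2 ratio of -0.27. Actg2, smooth muscle γ-actin, was at 0.47 (0.422 to 0.521) and Ppp1r14a, an inhibitor of myosin phosphatase, at 0.522 (0.447 to 0.608), whereas desmin (Des) was at 1.72 (1.2 to 2.44) and Synpo2, an actin-binding protein, at 1.38 (0.753 to 2.45). The turnover gene Cotl1 was at 2.75 (1.7 to 4.46).

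Likeness of levels over 14 class sums was read among 2689 genes, and the 10 genes and the class markers were not ranked. Most like Tpm1 were then Nexn (Pearson r = 0.93), Map1b (0.90), Pdgfrb (0.88), Bola3 (0.88) and Tgfb3 (0.88). For Acta2 they were Actg2 (0.93), Nexn (0.88), Fbxl22 (0.88), Pdgfrb (0.86) and Ppp1r14a (0.84). The sums are 7 classes in each of 2 libraries, share cells' totals and are not independent, and r was taken on log2 values of the level plus 1. Nexn, an actin filament-binding protein, was at 65.9 and 49.5 CPM in wild-type and mutant Scx-high cells, at 12.7 and 32.7 CPM in Scx-low fibroblasts and at 366 and 295 CPM in mural cells. These lay on the same side as Tpm1 in each class, but Nexn was picked for its likeness to Tpm1 over these same levels. Among the 10 genes themselves Myl9 and Tagln (0.96) and Myl9 and Cald1 (0.91) were closest. Acta2 was at 0.87 with Myl9 and with Tagln and at 0.85 with Tpm2, above some of the genes named for it.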

How the data were processed

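Cells were sequenced as 10x Genomics 3′ libraries, 1 per group, on a NextSeq 500. The deposited values are raw UMI counts per gene and cell, which the authors made with Cell Ranger (version 2.0 in the methods, 1.2.0 in the submitters' processing notes) on mm10. Totals were 9451606 UMIs in 2364 wild-type cells (948 to 14358 a cell) and 8250248 in 2592 mutant cells (903 to 15968). All barcodes were used, doublets included. Leaving out the 26 (wild-type) and 8 (mutant) cells that Scrublet marked was an alternative, and how many doublets remained was not tested.

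For each class the UMIs of a gene were added up and divided by all UMIs of the class, with exact Poisson intervals. Ratios have exact conditional binomial intervals and shares have Clopper-Pearson intervals. A gene was read as higher or lower at 2-fold and a mean level of at least 50 CPM. With 1 library a group no test was made, and no replicate could be left out. The interval for a count of 0 reaches somewhat above 3 UMIs in a class. Thinning drew 1641 UMIs from each cell, the 10th percentile over the 3 classes, and left out 102 and 24 shallower Scx-high cells.

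The alternatives were the class rules as written, other thresholds for Scx and for fibroblast and mural UMIs, per-cell means, filters on cells, doublets, other scalings, thinning and a lower level minimum. All 10 genes were described in every class. From each list at most the 2 genes with the largest and the 2 with the smallest ratio were named. For Tpm1 and Acta2 the 5 genes most like them outside the 10 genes and the class markers were named. Other genes and splits were chosen after their values were seen. The members and lists were chosen with earlier results of these data known, and the study lists Tpm1 and Tpm2 among genes picked from these libraries, by comparing groups of cells other than the classes used here. RefSeq gave promoter windows for 8 of the 10 genes. The ratio, its interval and the 2-fold rule were tested on class sums simulated with counting error only. That simulation cannot show how they hold where cells or pups differ. Python 3.11.15, numpy 2.4.6, scipy 1.17.1, pandas 2.3.3 and scanpy 1.11.5 were used.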

Additional observations from a re-analysis of the deposited data

Results flagged for a closer look

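In 7 genes the mutant over wild-type ratio lay on opposite sides of 1 in at least 2 classes, beyond counting error. How many of all genes did so was not counted, so that the number has no background share beside it and describes these genes singly. With 1 library a group these differences between classes were not tested. Tpm1 was at 0.68 in Scx-high cells and 0.776 in mural cells but at 1.24 in Scx-low fibroblasts. Tpm2 was at 1.68 in Scx-high cells, 0.653 in Scx-low fibroblasts and 0.623 in mural cells. Tpm4 was at 3.28 in Scx-high and 1.95 in mural cells but at 0.814 in Scx-low fibroblasts. Acta2 was at 3.65, 0.676 and 0.62 in Scx-high cells, Scx-low fibroblasts and mural cells, and Actb at 1.61, 0.755 and 0.782. Tagln was at 56.9 in Scx-high cells and 2.01 in Scx-low fibroblasts but at 0.544 in mural cells. Myl9 was at 3.37 in Scx-high and 0.806 in mural cells. Depth per cell differed between the libraries by class, and its part in these ratios was not tested beyond the thinned values.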

How the results depend on the processing

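No paired analysis was possible because each group had 1 library and no test was run, and no replicate could be left out. Over 41 ratios of 9 genes (none of Actg1) and 14 alternatives, 557 of 574 values kept their direction. Of the others, 8 values turned in 6 ratios whose interval excluded 1, of which Tagln in Scx-low fibroblasts and Tpm2 between the wild-type classes had been past 2-fold. Tagln, Acta2, Myl9 and Tpm4 were at least 2-fold higher in mutant Scx-high cells under all 14 alternatives, with Tagln at 13.0 to 70.6, and Cald1 under 11 of 14. The Tpm1 ratio in Scx-high cells ran from 0.55 to 0.722. It was 0.573 without the 20 most abundant genes in the total and 0.55 when centred on the median of all genes.

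With the rules as written, so that mural cells also counted as fibroblasts, 6 genes were lower and 0 higher in mutant Scx-low fibroblasts, 1 gene was higher in mutant mural cells, and 0 genes were higher in Scx-high than in Scx-low wild-type cells. Ratios that turned were then Tpm1 (0.406) and Tagln (0.172) in Scx-low fibroblasts, and in the comparison of Scx-high cells with Scx-low fibroblasts Tpm2 (0.321) and Acta2 (0.0866) in wild-type and Myl9 (0.988) in mutant cells. Acta2 in Scx-low fibroblasts turned to 1.15 with 3 fibroblast and 2 mural UMIs as the thresholds and to 1.13 without cells with any mural UMI, and with 10 and 5 UMIs Acta2 turned to 0.742 between the wild-type classes. With those higher thresholds 1 gene was lower and 0 higher in mutant Scx-low fibroblasts, and 1 was higher in wild-type Scx-high cells. With per-cell means, as with thinned cells, 1 gene was lower and 0 higher in mutant Scx-low fibroblasts, and with Scx at 15 per 10,000 0 were higher there. In mutant mural cells 1 gene, Tpm4, was higher without cells of other types or without cells with a skeletal muscle UMI, and 2 were lower after centring. These counts are of the 10 genes only, and the shares of all genes were not counted under the alternatives. A count here therefore cannot be told apart from a shift of the whole class. The cause was not tested for any of these beyond the construction of the alternative.

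Depth limits the values for Cnn1 and Actg1 outside mural cells and all splits of few cells. Mutant Scx-high cells were few, and the top cells carried most Tagln and Acta2 UMIs, so that counting intervals understate the error.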
